A study of Mus musculus with 12 samples.

Results

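The kallikrein kinin system was described here through 5 of the 46882 gene names in a table of mouse kidney read counts: the kininogen genes Kng2 and Kng1, the tissue kallikrein gene Klk1, and the bradykinin receptor genes Bdkrb2 and Bdkrb1. Kng2 was chosen by its lower level in kidneys without A1cf, and the other 4 members were taken for their roles in the same system, whatever their values. The comparison of Kng2 between genotypes is therefore given as a description, with no test.

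Whole kidneys came from C57BL/6 mice of 6 to 8 weeks, 6 wild-type animals (WT) and 6 animals of genotype A1cf -/- (A1cf KO), with no treatment named. The series gives the animals as biological replicates, and each library is named by its animal number: 573, 590, 601, 776, 777 and 778 for WT, and 574, 584, 588, 591, 602 and 780 for A1cf KO. How the A1cf allele was made, and in which cells A1cf is lost, is not given in the sources used here. A1cf encodes an RNA-binding protein known as a partner of the cytidine deaminase APOBEC1 in the editing of apolipoprotein B mRNA.

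Kininogens are secreted proteins that carry the short peptide bradykinin within their chain, behind cystatin-like domains that inhibit cysteine proteases. Tissue kallikrein, which the kidney makes chiefly in the connecting tubule, cuts kinins out of kininogen, and plasma kallikrein does the same in blood. Kinins act through the constitutive receptor B2 and the injury-inducible receptor B1, widen vessels and promote salt excretion, and are destroyed within seconds by peptidases such as angiotensin-converting enzyme. Most plasma kininogen is made by the liver, and kininogen has also been localised to the distal nephron.

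Kng1 and Kng2 are near copies of each other. The stretch that encodes bradykinin is shown for both genes to set their kinin codons, and the bases around them, side by side. The kinin codons are in capitals, with 30 coding bases of the spliced message on either side in lower case, 5′ to 3′, from the GENCODE M21 transcripts of the mouse genome build mm10.
Kng2, codons 381 to 389 at chr16:22988281-22988307 on the minus strand: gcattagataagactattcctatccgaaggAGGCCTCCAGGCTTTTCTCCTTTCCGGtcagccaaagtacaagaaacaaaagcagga
Kng1, codons 380 to 388 at chr16:23078989-23079015 on the plus strand: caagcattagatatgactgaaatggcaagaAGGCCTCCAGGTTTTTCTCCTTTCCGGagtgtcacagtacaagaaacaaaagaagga
Compared base by base as printed, without gaps, the 2 stretches differed at 26 of 87 bases, of which 1 lay within the 27 bases of the 9 kinin codons. The flanks before the kinin codons share a run of bases at different distances from those codons. The printed stretches are thus out of step there, and the count of 26 overstates their difference. Over the whole coding sequence the pair was identical at 92.9% of 1932 aligned bases. Of all 50-base windows in the Kng2 transcripts, 19.4% also occurred in Kng1, and the share was 5.29% for 100-base windows. Klk1 has close relatives too: its coding sequence was 81.4% to 95.2% identical to those of 13 Klk1b copies, with Klk1b5 the nearest, and 24% of its 50-base windows occurred in another gene. Bdkrb1 and Bdkrb2 were 63.4% identical over 951 aligned bases and shared no 50-base window with any gene. The read length is not given in the sources used here, so how many reads could have gone to the wrong copy was not tested.

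The 250 bases before the annotated start are shown for the substrate and the enzyme that had by far the highest levels of the 5 members. They come from RefSeq for the build GRCm38.p6, in lower case with matches to the motifs searched in capitals.
Kng2, chr16:23029102-23029351, minus strand: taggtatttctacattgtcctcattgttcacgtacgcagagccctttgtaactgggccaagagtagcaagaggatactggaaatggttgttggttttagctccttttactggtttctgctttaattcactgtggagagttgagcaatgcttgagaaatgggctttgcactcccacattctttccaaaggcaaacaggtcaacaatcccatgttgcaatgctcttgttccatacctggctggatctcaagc
Klk1, chr7:44225110-44225359, plus strand: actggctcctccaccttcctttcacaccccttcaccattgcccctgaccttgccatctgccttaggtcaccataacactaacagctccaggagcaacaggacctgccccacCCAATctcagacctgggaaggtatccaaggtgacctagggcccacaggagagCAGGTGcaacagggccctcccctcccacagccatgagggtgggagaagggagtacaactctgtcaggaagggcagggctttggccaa
Both strands were searched for the TATA box TATAAA, the CCAAT box, the HNF1 half-site GTTAAT, the steroid receptor half-site AGAACA, the GC box GGGCGG and the E-box CAGGTG. The Klk1 window held a CCAAT box 139 to 135 bases before the start and an E-box 87 to 82 bases before it. Such a CCAAT occurred in 33.8% and such an E-box in 17.2% of 32851 windows of the same length. The Kng2 window held none of these letters, and neither did that of Bdkrb2. A match here is a description of the letters, not a site that was shown to be used.

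Libraries held 26671705 to 52899139 counts, and 16910 genes passed the filter on low counts. The targeted gene A1cf (chr19:31868761-31949406) was at 45.2 to 65.7 CPM (counts scaled to a common library total with TMM) across WT and 2.95 to 6.11 across A1cf KO, without overlap. Tested with edgeR, the log2 fold change was -3.72 (SE 0.15, adjusted p = 6.0e-09). The tissue label was met by kidney markers: the proximal tubule list summed to 33596 to 51058 CPM over all 12 libraries, the podocyte list to 177 to 314 CPM. The 12 animals carry numbers in 2 series, 573 to 602 with 3 WT and 5 A1cf KO animals, and 776 to 780 with 3 WT and 1 A1cf KO animals. The labels call neither a batch.

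Kng2 lay at chr16:22985854-23029101 on the minus strand, with 11 exons and 2509 counted exon bases, and took 9551 to 20649 counts per library. In WT its level was 386 CPM in animal 573, 365 in 590, 394 in 601, 429 in 776, 411 in 777 and 440 in 778. In A1cf KO it was 306 CPM in 574, 346 in 584, 318 in 588, 337 in 591, 335 in 602 and 323 in 780. Every A1cf KO library was thus below every WT library, the nearest pair being A1cf KO 584 and WT 590. The means were 404 ± 27.9 CPM for WT against 328 ± 14.6 for A1cf KO (SD, n = 6 each), so that A1cf KO stood at 81.1% of WT, a log2 fold change of -0.30 (SE 0.058). Since these values chose the gene, nothing is read from them. For comparison, 0.52% of the 16910 genes tested had all A1cf KO libraries below all WT libraries, and 7.24% had a log2 fold change at or below that of Kng2. In whole kidneys, fewer cells of a type and less RNA per cell cannot be told apart.

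**Figure D1:**
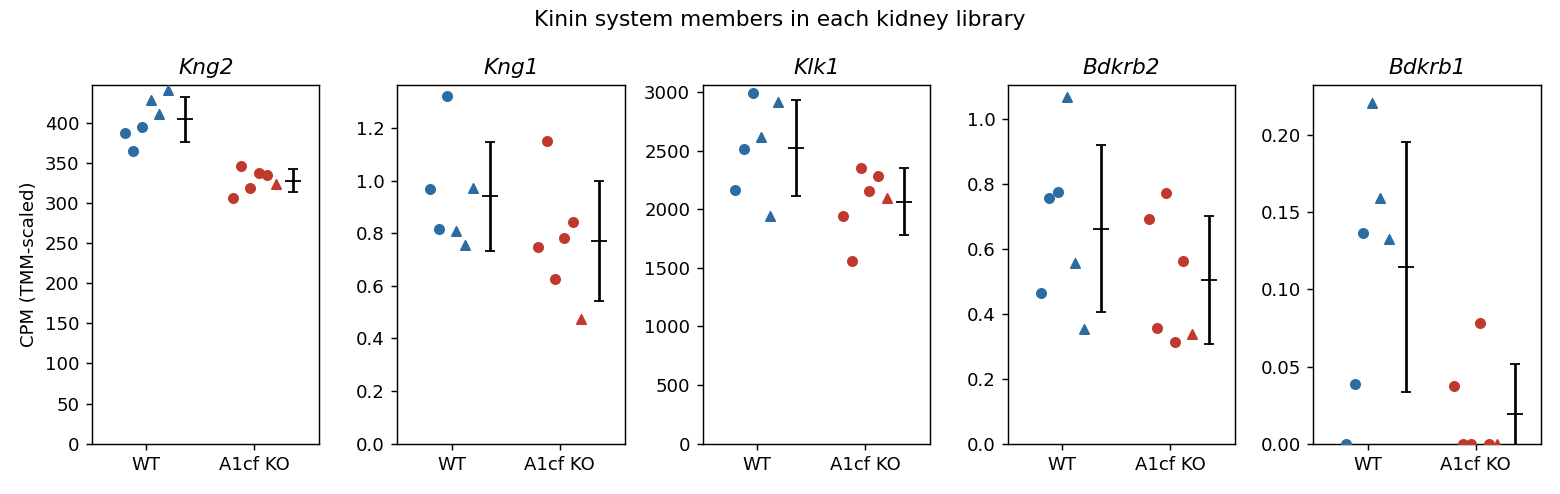
Levels of the 5 kinin system genes in each library in TMM-scaled CPM, 1 panel per gene, on linear axes that start at 0. Circles are animals 573 to 602 and triangles animals 776 to 780, blue for WT and red for A1cf KO, and black bars show the mean and SD of each group (for Bdkrb1 in A1cf KO the lower end of the bar is cut at 0). Kng2 is at 365 to 440 CPM in WT and 306 to 346 CPM in A1cf KO, while the groups overlap for the other 4 genes.

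Kng2 varied less among replicates than most genes of its level. Its coefficient of variation was 6.91% in WT and 4.46% in A1cf KO, a mean of 5.69%, beside a median of 8.80% for the 705 tested genes within 2-fold of its level. Of those genes, 17% varied less. The spread comes from the same values that chose Kng2. A choice by a difference between groups can favour genes of small spread, so this rank is only a description.

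The animal number series gave a contrast that the choice of Kng2 did not use. Within 573 to 602, Kng2 was at 365 to 394 CPM in WT and 306 to 346 CPM in A1cf KO. Within 776 to 780, it was at 411 to 440 CPM in WT and 323 CPM in the single A1cf KO animal. The WT animals of the later numbers were all higher than those of the earlier ones, at 426 ± 14.9 against 382 ± 15.1 CPM (SD, n = 3 each), a log2 difference of 0.16. The exact two-sided permutation p was 0.1, which is the smallest that 3 against 3 allows. In a fit over all 12 libraries with genotype as the other term, the log2 difference of Kng2 between the series was 0.096 (SE 0.061, edgeR quasi-likelihood test, adjusted p = 0.43, and 0.32 to 0.65 over the alternatives, DESeq2 and limma-voom among them). None of the 4 tested members passed the edgeR test in this contrast, which 2.9% of all genes tested did. Before adjustment, p was under 0.05 for 0 of the 4 and for 18.4% of all genes. Kng1 gave -0.44 (adjusted p = 0.37), Klk1 -0.01 (adjusted p = 0.97) and Bdkrb2 -0.23 (adjusted p = 0.78). The uneven spread of genotypes over the series touches the size given for Kng2: its log2 fold change was -0.27 (SE 0.058) with the series as a covariate and -0.22 (SE 0.066) within animals 573 to 602.

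**Figure D2:**
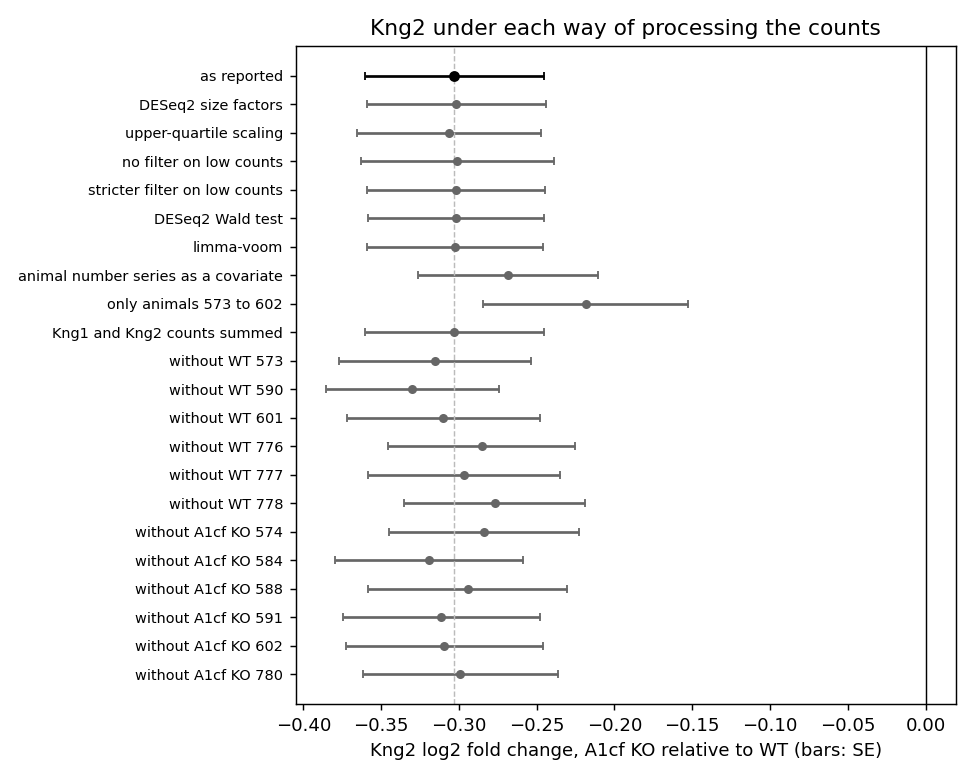
The log2 fold change of Kng2, A1cf KO relative to WT, on a linear axis, as reported (black, dashed line) and under each other way of processing the counts (grey), with bars for the SE. The side of 0 was fixed by the choice of the gene. The points lie between -0.33 without WT 590 and -0.22 with only animals 573 to 602.

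Kng1, the second kininogen gene, lay beside Kng2 at chr16:23057865-23082068 on the plus strand, with 13 exon segments and 3159 counted bases. It took only 14 to 58 counts per library. The WT animals stood at 0.970 CPM in 573, 0.815 in 590, 1.32 in 601, 0.810 in 776, 0.756 in 777 and 0.972 in 778. Among A1cf KO animals the level was 0.747 CPM in 574, 1.15 in 584, 0.626 in 588, 0.781 in 591, 0.844 in 602 and 0.474 in 780. The groups overlapped, with WT 601 highest and A1cf KO 780 lowest. The means were 0.941 ± 0.207 and 0.771 ± 0.228 CPM (SD, n = 6 each), a log2 fold change of -0.29 (SE 0.23) that did not pass the edgeR test (adjusted p = 0.69).

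Kng1 gave 0.146% to 0.334% of the counts of the kininogen pair in a library, 0.233 ± 0.055% in WT and 0.233 ± 0.062% in A1cf KO. Nearly all kininogen message of these kidneys was therefore counted on Kng2 in both genotypes. With so small a share, adding Kng1 to Kng2 could not move the log2 fold change of Kng2, which was again -0.30. All 12 Kng1 counts were even numbers, as were 72.7% of the 111090 counts from 1 to 60 over all genes, so that the 2 reads of a pair appear to have been counted separately and the counts may overstate the number of fragments behind a low level.

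Klk1, the tissue kallikrein gene, lay at chr7:44225360-44229618 on the plus strand, with 5 exons and 1077 counted bases. It was the most abundant member, with 56741 to 132150 counts per library. In WT it stood at 2168 CPM in 573, 2515 in 590, 2989 in 601, 2617 in 776, 1942 in 777 and 2918 in 778. In A1cf KO it stood at 1939 CPM in 574, 1556 in 584, 2354 in 588, 2159 in 591, 2284 in 602 and 2098 in 780. The groups overlapped: WT 777 and 573 lay among the A1cf KO values, and A1cf KO 584 was lowest of all. The means were 2525 ± 411 and 2065 ± 289 CPM (SD, n = 6 each), which put A1cf KO at 81.8% of WT. That log2 fold change of -0.29 (SE 0.12) had an unadjusted p of 0.029 in the edgeR test and did not pass after adjustment (adjusted p = 0.42). Klk1 varied more among replicates than Kng2, with a mean coefficient of variation of 15.1% beside a median of 11.4% for 58 genes of like level.

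The Klk1b genes are glandular kallikreins that sit in the same cluster as Klk1 and arose from copies of it, several of them processing growth factors in the salivary gland. Of 13, 11 were tested and 0 passed the edgeR test, with 0 at an unadjusted p under 0.05 and 0 with DESeq2 or limma-voom. Of the 11, 10 had log2 fold changes below 0, and their median was -0.28, beside -0.003 for all genes tested. Klk1b5, the nearest copy, was the most abundant at 6.91 ± 1.46 CPM in WT against 5.96 ± 1.26 in A1cf KO (log2 fold change of -0.21, adjusted p = 0.69). Klk1b3 stood at 2.53 ± 0.517 and 2.20 ± 0.568 CPM (-0.19, adjusted p = 0.78). The steepest values were those of Klk1b22, -0.51 (adjusted p = 0.49), and Klk1b24, -0.49 (adjusted p = 0.52), and the only one above 0 was Klk1b4 at 0.02.

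Summed, the Klk1b copies came to 14.5 to 20.03 CPM in WT and 9.11 to 17.4 CPM in A1cf KO. Animal 584, which had the lowest Klk1, also had the lowest Klk1b sum. The copies gave 0.693 ± 0.030% of the counts of Klk1 and Klk1b together in WT and 0.705 ± 0.075% in A1cf KO, 2 shares that differed by less than their SD. Reads of Klk1 given to its copies would appear in these sums, and how many there were was not tested. Adding so small a share to Klk1 could not move its log2 fold change, which was again -0.29. Of 12 other kallikrein-related peptidases only Klk8 had enough counts to be tested, at 1.03 ± 0.333 and 0.879 ± 0.148 CPM (-0.22, adjusted p = 0.78), and Klk4, Klk5 and Klk12 had no count in any library.

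Bdkrb2, the gene of the B2 receptor through which intact bradykinin acts, lay at chr12:105563172-105593071 on the plus strand, with 3 exons and 1680 counted bases. It took 10 to 39 counts per library. WT levels were 0.466 CPM in 573, 0.756 in 590, 0.775 in 601, 1.07 in 776, 0.557 in 777 and 0.353 in 778. A1cf KO levels were 0.691 CPM in 574, 0.357 in 584, 0.772 in 588, 0.313 in 591, 0.562 in 602 and 0.339 in 780. The groups overlapped over most of their range, and WT 776 alone lay above 1 CPM. Means of 0.662 ± 0.257 and 0.506 ± 0.198 CPM (SD, n = 6 each) gave a log2 fold change of -0.35 (SE 0.31), which did not pass the edgeR test (adjusted p = 0.74).

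Bdkrb1, the gene of the B1 receptor for kinins that have lost their last residue, lay beside it at chr12:105603085-105605428 on the plus strand, with 2 exons and 1435 counted bases. It was the rarest member. Its counts were 0 in WT 573, 2 in 590, 6 in 601, 6 in 776, 8 in 777 and 6 in 778, a sum of 28. In A1cf KO they were 2 in 574, 4 in 591 and 0 in 584, 588, 602 and 780, a sum of 6. A count of 0 allows up to 3 counts, which came to 0.058 CPM in WT 573 and 0.063 to 0.102 CPM in the 4 A1cf KO libraries, for counting error only. If both reads of a pair were counted, these limits are too low. The groups overlapped, and all 7 counts above 0 were even numbers, so that they may stand for fewer fragments than counts. Bdkrb1 failed the filter on low counts. With every gene of at least 1 count kept (29009 genes), its log2 fold change was -2.20 (SE 0.96). It had an unadjusted p of 0.033 in the edgeR test and did not pass after adjustment (adjusted p = 0.56). A value fitted to so few counts depends on the settings of the fit.

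Besides Kng2, whose sign was fixed by its choice, 3 of the 3 tested members had log2 fold changes below 0, from -0.35 to -0.29, where 50.8% of all genes tested lay below 0. The levels come from the same 12 libraries, so they are not separate observations. Of these 3 members, 0 passed the adjusted threshold of 0.05 with edgeR, and 0 with DESeq2 or limma-voom, beside 8 genes or 0.0473% of all genes with edgeR. Klk1, 1 of the 3, had an unadjusted p under 0.05 with a lower level in A1cf KO, as had 5.28% of all genes. Bdkrb2 alone of the 3 had a log2 fold change at or below that of Kng2.

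Per kilobase of counted exon, the order of levels was Klk1, Kng2, Bdkrb2, Kng1 and Bdkrb1 in both genotypes. Klk1 stood at 2344 ± 382 CPM per kilobase in WT and 1917 ± 268 in A1cf KO. Kng2 followed at 161 ± 11.1 and 131 ± 5.82. Bdkrb2 was at 0.394 ± 0.153 and 0.301 ± 0.118, and Kng1 at 0.298 ± 0.066 and 0.244 ± 0.072, so these neighbours overlapped over their libraries. Bdkrb1 came last at 0.080 ± 0.057 and 0.013 ± 0.023, with its highest library, WT 776, at 0.154 and the lowest Kng1 library, A1cf KO 780, at 0.150. Messages of the enzyme gene Klk1 and the substrate gene Kng2 were thus abundant in these whole-kidney libraries. Those of Kng1 and of the receptor genes were scarce.

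On chromosome 16 the kininogen pair stands in a row of cystatin-related genes, with Hrg, which encodes histidine-rich glycoprotein, and Fetub, which encodes fetuin-B. Counting genes whose annotated span begins within 500 kb of that of Kng2, 13 besides Kng2 were tested, of which 7 had log2 fold changes below 0 and 6 above. Their median was -0.02. Hrg, whose span begins 34.8 kb from that of Kng2, had the opposite sign: WT levels ran from 3.60 through a median of 4.76 to 8.73 CPM, and A1cf KO levels from 5.54 through 9.06 to 14.99 CPM. The groups overlapped through WT 573, the WT animal with 8.73 CPM. The log2 fold change of Hrg was 0.86 (SE 0.26) and did not pass the edgeR test (adjusted p = 0.30). Fetub stood at 2.001 ± 0.470 and 2.14 ± 0.441 CPM (log2 fold change 0.10, adjusted p = 0.89). The predicted gene Gm6493, which lies within the span of Kng2, was at -0.02, and Eif4a2, which encodes a translation initiation factor and has a level near that of Kng2, at -0.05 (SE 0.077). No exon of a member overlapped an exon of another gene name, so strand-blind counting did not mix the members with overlapping genes.

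**Figure D3:**
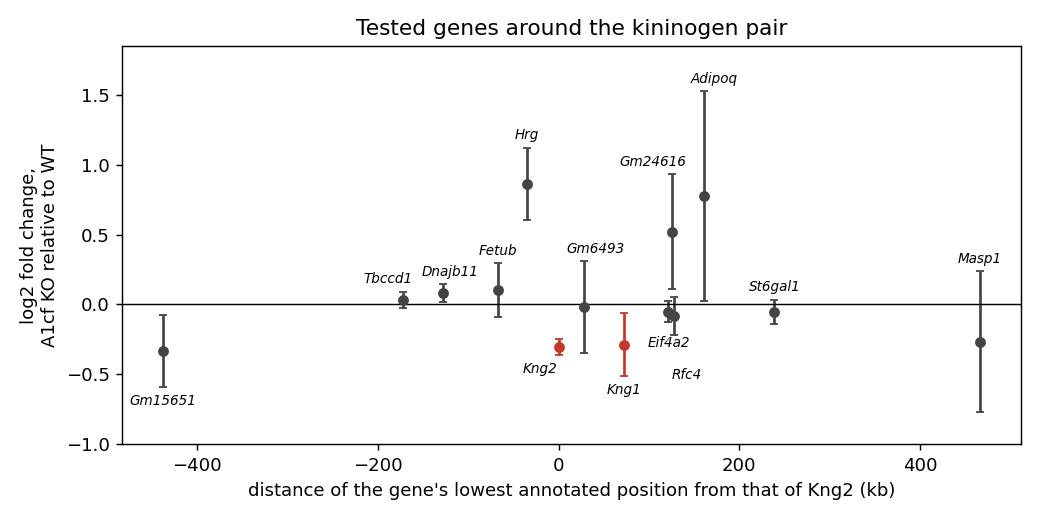
Log2 fold changes, A1cf KO against WT, for tested genes near Kng2, plotted against the distance in kb between the lowest annotated position of the gene and that of Kng2, both axes linear, with bars for the SE. The kininogens Kng2 and Kng1 are in red at -0.30 and -0.29, Hrg stands at 0.86, and Adipoq, the gene of the fat hormone adiponectin, has the widest bar.

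Of 10 genes of the contact system and of kallikrein inhibition, 6 were tested, 5 of them with log2 fold changes above 0 and a median of 0.14. None passed with edgeR (0 at an unadjusted p under 0.05), and 0 passed with DESeq2 or limma-voom. Klkb1, the gene of plasma prekallikrein, stood at 0.284 ± 0.079 CPM in WT against 0.325 ± 0.069 in A1cf KO (log2 fold change of 0.18, adjusted p = 0.84). F12, which encodes the protease that activates it, had at most 4 counts in a library, and F11 at most 2. The list as a whole summed to 206 to 268 CPM in WT and 211 to 293 CPM in A1cf KO, most of it from Pzp, C1qbp and Serping1. C1qbp, whose product binds kininogen on cell surfaces, was at 82.3 ± 5.73 and 85.2 ± 3.20 CPM (0.05, adjusted p = 0.78). Serping1, the gene of the C1 inhibitor that holds plasma kallikrein in check, was at 59.2 ± 15.2 and 63.4 ± 10.98 CPM (0.10, adjusted p = 0.87).

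Of 17 genes for peptidases that cleave kinins, 16 were tested, and 9 had log2 fold changes below 0, with a median of -0.04. None passed with edgeR or limma-voom, with 1 lower and 2 higher at an unadjusted p under 0.05, and 2 passed as higher with DESeq2. Over all genes, 5.28% were lower and 5.07% higher at that unadjusted p, and 0.603% passed as higher with DESeq2. The most abundant per length were Ace and Anpep. Ace, the gene of angiotensin-converting enzyme, stood at 183 ± 36.3 CPM in WT against 180 ± 33.4 in A1cf KO (-0.02, adjusted p = 0.97), and Anpep, the gene of aminopeptidase N, stood at 131 ± 16.8 and 149 ± 22.1 CPM (0.19, adjusted p = 0.55). Mme, the gene of neprilysin, a chief kininase of the proximal tubule brush border, was at 133 ± 23.7 and 115 ± 16.3 CPM (-0.21, adjusted p = 0.55).

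The next 3 kininase genes are named after their values were seen. Prcp, whose prolylcarboxypeptidase can also activate plasma prekallikrein, was at 69.7 ± 10.2 CPM in WT against 55.5 ± 5.51 in A1cf KO (-0.33, edgeR adjusted p = 0.27). Nln, the gene of neurolysin, was at 32.6 ± 1.77 and 38.1 ± 1.75 CPM (0.22, edgeR adjusted p = 0.17, DESeq2 adjusted p = 0.012). Cpd, the gene of carboxypeptidase D, was at 121 ± 12.8 and 144 ± 6.17 CPM (0.26, edgeR adjusted p = 0.23, DESeq2 adjusted p = 0.046).

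Downstream of the receptors, all 20 listed genes for G proteins, phospholipases, calcium release and prostaglandin or nitric oxide synthesis were tested, and 9 were below 0, with a median of 0.03. With edgeR 0 passed, with 1 lower and 3 higher at an unadjusted p under 0.05, and 0 passed with DESeq2 or limma-voom. Gnai2 and Gna11, which encode G protein subunits, were the most abundant per length, at log2 fold changes of 0.07 and -0.03. Ptgs2, the gene of the inducible cyclooxygenase, named after its values were seen, was at 0.440 ± 0.231 CPM in WT against 0.897 ± 0.419 in A1cf KO (1.00, adjusted p = 0.39).

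The cystatin side of kininogen was represented by 6 relatives and 9 cysteine proteases. Of 4 relatives tested, 0 passed with any of the 3 tools, with Hrg alone at an unadjusted p under 0.05, and the median was 0.04. Cst3, the gene of cystatin C, was at 185 ± 15.6 CPM in WT against 172 ± 10.2 in A1cf KO (-0.11, adjusted p = 0.59), and Cstb at 50.6 ± 5.99 and 49.8 ± 4.003 CPM (-0.02, adjusted p = 0.95). Of the 9 proteases 6 were below 0 with a median of -0.06, and 0 passed with edgeR or limma-voom. Ctsl stood at 544 ± 40.5 and 498 ± 36.3 CPM (-0.13, adjusted p = 0.52), and Ctsb at 649 ± 79.6 and 624 ± 32.8 CPM (-0.06, adjusted p = 0.84). Ctss, the cathepsin of antigen-presenting cells, named after its values were seen, was the only one at an unadjusted p under 0.05, at 10.6 ± 1.31 and 13.8 ± 1.09 CPM (0.38, edgeR adjusted p = 0.16, DESeq2 adjusted p = 0.0075). Ptprc, the leukocyte marker CD45, was at 7.46 ± 0.829 and 9.84 ± 1.99 CPM in the same libraries (0.40, edgeR adjusted p = 0.32), and its part in the Ctss value was not tested.

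**Figure D4:**
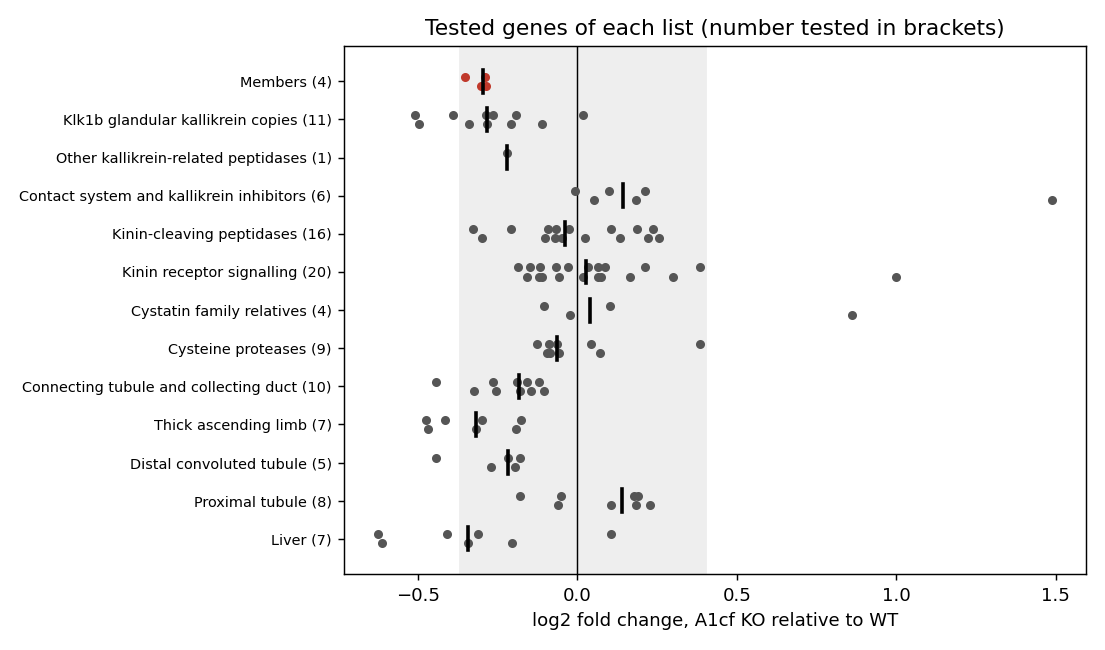
Log2 fold changes, A1cf KO against WT, for every tested gene of the lists, 1 row per list, on a linear axis, with the number of tested genes in brackets, the list's median as a black bar and the middle 90% of all genes tested as a grey band. The 4 tested members lie between -0.35 and -0.29, with the Klk1b copies around -0.28 and the kinin-cleaving peptidases around -0.04.

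Marker lists of the tubule segments are given beside Kng2 and Klk1, and their part in those levels was not tested. The 7 thick ascending limb markers all had log2 fold changes below 0, with a median of -0.32. They summed to 3979 to 5720 CPM in WT and 3046 to 3899 CPM in A1cf KO, without overlap. Umod, the uromodulin gene, gave most of these sums, with a WT mean of 3084 CPM where the list's was 4662 CPM. Umod and Cldn16 had all A1cf KO libraries below all WT libraries, as had 0.52% of all genes. Slc12a1, Kcnj1, Cldn10, Ptger3 and Tmem72 overlapped. Umod was also the steepest at -0.48 (edgeR adjusted p = 0.11, DESeq2 adjusted p = 5.5e-05). Of these 7, 0 passed with edgeR or limma-voom, 6 were lower at an unadjusted p under 0.05 (5.28% of all genes), and Umod and Tmem72 passed as lower with DESeq2, as did 0.536% of the 14930 genes that it tested. Markers of the connecting tubule and collecting duct, where renal kallikrein is made and meets kininogen, were below 0 in 10 of 10 tested, with a median of -0.18. They summed to 1285 to 1921 CPM in WT and 1142 to 1683 CPM in A1cf KO, which overlapped, and 0 passed with any of the 3 tools, with 2 lower at an unadjusted p under 0.05. The 5 distal convoluted tubule markers had a median of -0.22, 0 passed with any of the 3 tools, and 2 were lower at an unadjusted p under 0.05. Their sums were 1249 to 1773 CPM in WT and 1189 to 1442 CPM in A1cf KO. The 8 proximal tubule markers had a median of 0.14 and sums of 33596 to 48022 and 35389 to 51058 CPM. Kap gave most of these sums, with a WT mean of 31080 CPM where the list's was 40648 CPM. Of the 8, 0 passed in any of the 3 tools and 1 was higher at an unadjusted p under 0.05.

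Liver is the main source of plasma kininogen, and some genes known from liver were low but present. The liver list summed to 112 to 194 CPM in WT and 79.0 to 140 CPM in A1cf KO, with 6 of 7 tested genes below 0 and a median of -0.34. Of the 7, 0 passed with edgeR or limma-voom, 2 were lower at an unadjusted p under 0.05, and Apoa2 passed with DESeq2 (-0.63, adjusted p = 0.0030). The defining liver genes Cps1, Tat and Cyp2c29 were too low to be tested, with Cps1 at 0 in all libraries except A1cf KO 584 (10 counts), which also had the most Cyp2c29 (24 counts). Tat went the other way, with 0 counts in 584 and its most in A1cf KO 780 (21 counts) and WT 776 (19 counts). The liver list summed to 97.6 CPM in 584, inside the range of its genotype. Animal 584 had the highest Kng2 and Kng1 levels of its genotype. Without it the log2 fold change was -0.32 for Kng2 and -0.43 for Kng1. Any part of liver tissue in these levels was not tested. Alb stood at 6.57 ± 1.89 and 7.05 ± 2.75 CPM. Fat markers ran from 11.3 to 232 CPM in WT and from 0.125 to 298 CPM in A1cf KO, and urothelial markers from 1.76 to 56.6 and from 2.38 to 17.2 CPM. The pancreas and salivary gland list, for tissues rich in kallikrein, summed to 50.4 to 118 CPM in WT and 49.97 to 80.6 CPM in A1cf KO. All of that came from Cela1 (59.2 and 52.9 CPM) and Amy1 (15.7 and 15.1 CPM), since Cpa1, Prss1, Pnlip and Amy2a5 had no count in any library. The adrenal list summed to 3.18 to 5.15 and 3.18 to 4.10 CPM, nearly all from Star (4.14 and 3.48 CPM), while Cyp11b2 was at 0 throughout. Blood cell markers summed to 213 to 383 and 135 to 417 CPM, the highest in A1cf KO 584.

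**Figure D5:**
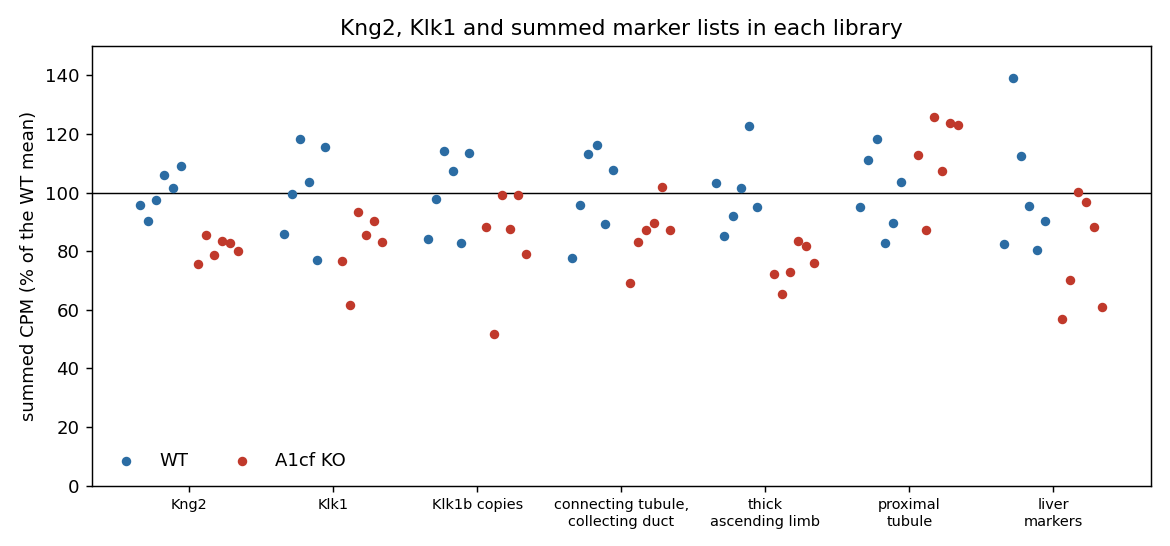
Kng2, Klk1, the summed Klk1b copies and summed markers of 3 tubule segments and of liver in each library, in CPM as a percentage of the WT mean, on a linear axis from 0, with WT in blue and A1cf KO in red and 100% as a line. The Kng2 and thick ascending limb values of A1cf KO lie below all those of WT, and the other 5 columns overlap. Most of the thick ascending limb sum is Umod, and most of the proximal tubule sum is Kap.

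With genotype set aside, but not the animal number series, 5 genes followed Kng2 most closely from library to library. Any part of the series in this likeness was not tested. The measure was the Pearson correlation of log2 CPM after subtracting each genotype's mean, over 12 libraries and 13705 genes of at least 1 CPM, given as a description: all values share the libraries and their depth. Nrbp2, which encodes a pseudokinase, was at r = 0.93 (Spearman rho 0.87), and Isyna1, the gene of the enzyme that makes inositol phosphate from glucose 6-phosphate, at 0.92 (0.90). Opn3, an opsin gene, and Mgst1, which encodes a microsomal glutathione S-transferase, were at 0.91 (0.92 each), and the predicted gene Gm14967 at 0.89 (0.89). Without WT 590 and 778, which lay farthest from the middle, r was 0.84 to 0.91 for the 5. Since the 5 were picked as the highest in these same libraries, the choice raises r, also with WT 590 and 778 left out. The log2 fold changes of these 5 genes ran from -0.33 for Nrbp2 to -0.07 for Mgst1, with edgeR adjusted p from 0.48 to 0.90.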

How the data were processed

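RNA from 12 whole kidneys was sequenced from Illumina TruSeq libraries made of total RNA, per the labels' protocols. The authors deposited raw read counts per gene name, made with featureCounts 1.5.0-p2 over exons of the GENCODE M8 annotation, with no strand or pair option, per the file headers. STAR and the build mm10 are named in the submitters' processing notes, and DESeq2 too, with no version stated. The deposited exon length in bases per gene, another column, was used for levels per kilobase.

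Samples were grouped by the genotype in their titles. The analysis used edgeR 4.0.16 in R 4.3.3: filterByExpr by genotype (16910 of 46882 names kept), TMM scaling and the quasi-likelihood F test over all 12 libraries without a covariate, with Benjamini-Hochberg adjustment over all genes tested and a threshold of 0.05. Fold changes compare A1cf KO with WT on the log2 scale. Log2 CPM used a prior count of 2. The fits were tested on simulated counts. Of 100 simulated 1.25-fold changes 17 were called, and of 100 2-fold changes 84, with 2 of 16487 unchanged genes called. The fitted log2 fold changes of the 1.25-fold set had a median absolute value of 0.31, near the size of the members' values. Failing the test therefore says little about differences of that size. Alternatives were scaling by upper quartile or DESeq2 size factors, leaving out the filter, a filter of at least 1 CPM in 6 libraries, the DESeq2 1.42.0 Wald test, limma-voom (limma 3.58.1), the animal number series as a covariate, only animals 573 to 602, summed copies, and leaving out each library. Sequences were aligned with Biopython 1.88.

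The members and the gene lists were chosen with earlier results of these data known. Named genes were all members, the 2 most abundant genes per length of each pathway list, genes needed to describe the pathway, tested genes within 500 kb of Kng2 and the 5 genes most like it. Genes of the cell type lists, and others where stated, were named after their values were seen. No value column was left unused. Protein sequences, and upstream sequences of Kng1 and Bdkrb1, were not used here.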

Additional observations from a re-analysis of the deposited data

Results flagged for a closer look

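Among 46 groups of 6 libraries (23 genes: A1cf, the 5 members, the other tested genes within 500 kb of Kng2 and the 5 genes most like it), 4 held 1 library set apart from the rest of its genotype by Dixon's test at the 95% level, which chance does in about 1 of 20 groups. No member was among them. Dnajb11 was at 78.3 CPM in WT 590. Hrg, the histidine-rich glycoprotein gene, was at 8.73 CPM in WT 573, the library through which its genotypes overlap. Gm24616 was at 0.028 CPM in A1cf KO 602. Adipoq, a fat marker, was at 39.4 CPM in WT 777.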

How the results depend on the processing

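The members' log2 fold changes were recomputed under each alternative. The sign of Kng2 was fixed by its choice, so its alternatives show only how far the size moved. It was below 0 in all 21 (1 of which adds Kng1, too rare to move it). The values ran from -0.31 to -0.22 over the settings and from -0.33 to -0.28 with each library left out. With only animals 573 to 602 it was -0.22 (SE 0.066), a shift from -0.30 about equal to the SD of log2 CPM within genotypes (0.084). Kng1 (19 alternatives, -0.44 to -0.17, adjusted p from 0.44 to 0.86), Klk1 (21, 1 of which adds the Klk1b copies, too rare to move it, -0.35 to -0.22, adjusted p from 0.27 to 0.67) and Bdkrb2 (19, -0.51 to -0.19, adjusted p from 0.64 to 0.88) kept their direction and none passed. The stricter filter removed Kng1 and Bdkrb2, and Bdkrb1 could be fitted only without the filter. The difference of Kng2 between the animal number series stayed above 0 in 18 alternatives (0.072 to 0.16, adjusted p from 0.32 to 0.65). The number of genes past the threshold was 8, and it was 170 with the DESeq2 Wald test (80 lower, 90 higher), 24 with the animal number series as a covariate (13 lower, 11 higher), 7 or 8 in the other settings and 6 to 12 with each library left out. The cause was not tested. No paired analysis was possible because the animal numbers are not shared between the genotypes. Low counts limit Kng1 and Bdkrb2, whose SE (0.23 and 0.31) was near the size of their difference, and Bdkrb1, which could not be tested after the filter.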
